A study of Drosophila melanogaster with 4 samples.

Results

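The Antennapedia complex is the group of homeotic (Hox) genes on chromosome arm 3R of Drosophila melanogaster that holds labial (lab), proboscipedia (pb), Deformed (Dfd), Sex combs reduced (Scr) and Antennapedia (Antp). CP190 along it was read from chromatin immunoprecipitation followed by sequencing (ChIP-seq). The regions described here are the regions of significant enrichment that the authors deposited, called clusters below, whose midpoint lies at 2480000 to 2830000 on 3R of FlyBase release 5. The authors' combined list put 25 of its 7960 clusters there. The list of ChIP replicate 1 put 16 of 4461 there, and that of ChIP replicate 2 put 21 of 4900. The clusters were chosen by position alone, not by their enrichment.

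The embryos were whole wild-type embryos of the Oregon-R strain, labelled as 14 to 16 h old, with 2 CP190 ChIP samples and 2 input chromatin samples. The inputs were used here only as part of the authors' own calls. No mutant, treated or other tissue sample is compared, and a whole embryo mixes cells in which each Hox gene is on with cells in which it is off. Nothing in the labels says that the ChIP replicates came from separate collections, so their spread may be technical.

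CP190 is a protein with zinc fingers and a BTB domain that joins insulator complexes. It is brought to DNA by sequence-specific insulator proteins such as CTCF, Su(Hw) and BEAF-32, and is known at insulators, at borders of chromatin domains and at many active promoters. Hox genes give body segments their identity, and insulators are known to keep their regulatory regions apart. By this stage most Hox expression domains have been laid down and are kept by Polycomb and Trithorax group proteins.

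Each cluster carries 1 value, treated as the log2 of an enrichment ratio and called its log2 score. A score of 1 is a 2-fold ratio. What the ratio is taken over is not given, and the read depth is unknown. Scores were therefore compared mainly within a list, or between lists as an order. For clusters found in both replicates, score differences between the replicate lists are also given. There is 1 condition, so no test between groups was possible. Values for the complex are set beside those for the rest of 3R, and beside 78 other intervals of the same 350 kb length laid end to end along the arm. The 95% intervals beside shares are exact (Clopper-Pearson) and reflect only how many clusters or genes were counted.

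Genes were located from a RefSeq table of release 6, whose 3R sequence carries extra bases at its centromeric end. A single constant, given with the definition of the complex, was subtracted, and the arm's clusters were used to check it. With the constant applied, 57.6% of all combined clusters on 3R covered an end of a protein-coding gene. With the genes moved a further 5 to 20 kb either way, the share was 31.8 to 35.7%. In each of 4 equal-sized groups of clusters along the arm, the share was highest at no extra shift, at 52.9 to 60.9%. The genes lab, pb, Dfd, Scr and Antp fell inside the interval in this order from the centromeric side, as the definition of the complex states. A constant shift cannot change their order, so the order is no check of the constant. The table gives no strand, so either end of a gene is treated alike, and no gene coordinate is printed.

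**Figure D1:**
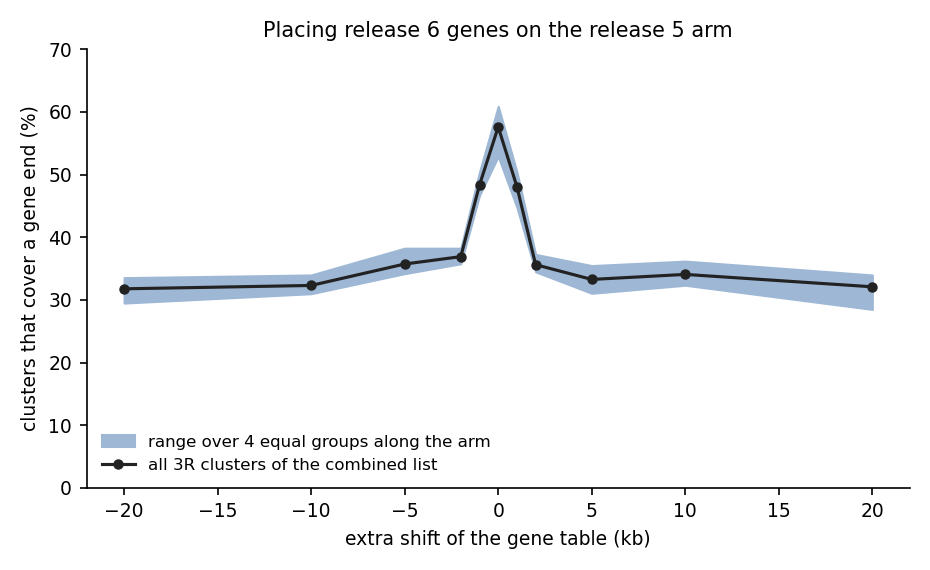
Share of the combined clusters on 3R that cover an end of a protein-coding gene (vertical axis, %) against an extra shift of the gene table (horizontal axis, kb). The line is all clusters, the band is the range over 4 equal-sized groups of clusters along the arm, and the peak of 57.6% lies at 0 extra shift.

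CP190 clusters were found all along the complex, but they were uneven in strength. Clusters covered 15.2% of the interval in the combined list, 10.6% in replicate 1 and 13.5% in replicate 2. Combined clusters were 1141 to 5528 bp long, with a median of 2108 bp, against 1994 bp on the rest of 3R. The median log2 score was 0.65 in the complex and 0.39 on the rest of 3R. It was 0.62 against 0.57 in replicate 1 and 0.79 against 0.59 in replicate 2. The combined scores ran from 0.25 to 1.85, and 7 clusters had a score of at least 1.

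**Figure D2:**
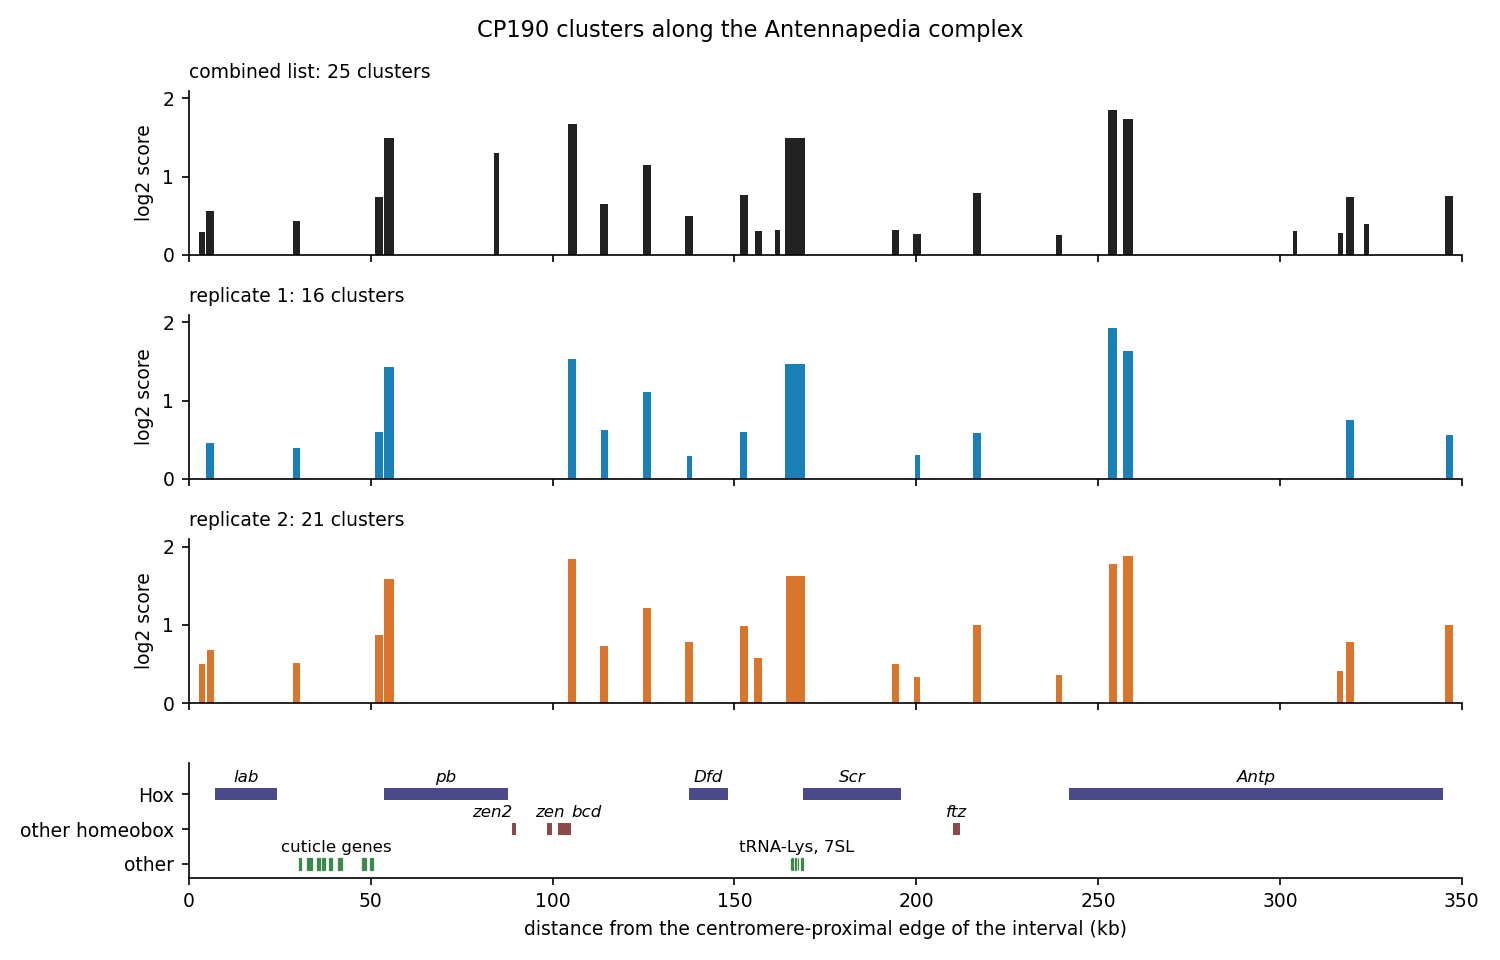
Log2 score (vertical axis) of each CP190 cluster against distance from the centromere-proximal edge of the interval (horizontal axis, kb), for the combined list (25 clusters), replicate 1 (16) and replicate 2 (21), with gene spans below. Bar width is cluster length; the tallest bars stand inside Antp, over a bcd end, inside pb and over the tRNA-Lys and 7SL genes.

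The strongest enrichment of the complex lay inside Antp, the Hox gene that specifies thoracic segments. A cluster at 2732856 to 2735122 had a log2 score of 1.85 in the combined list, 1.93 in replicate 1 and 1.77 in replicate 2. Its neighbour at 2736800 to 2739684 had 1.74 in the combined list, 1.63 in replicate 1 and 1.88 in replicate 2. Among the clusters of 3R they ranked 16 and 23 in the combined list, 12 and 27 in replicate 1, and 26 and 20 in replicate 2. Both lie in the centromere-proximal part of the gene, inside the span that it shares with the gene CG46458. As background, Antp is transcribed toward the centromere, so this is the part nearer its 3′ end.

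Beyond this pair Antp was mostly bare. The longest stretch of the complex without a combined cluster ran from 2739685 to 2783545, which is 43.9 kb and lies wholly within Antp. In replicate 1 the bare stretch was 58.5 kb and in replicate 2 it was 56.2 kb. A short combined cluster at 2783546 to 2784686 (log2 score 0.31) bounds it and was found in neither replicate. It covers the centromere-distal end of CG46458.

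The distal part of Antp held 1 cluster seen in all 3 lists, at 2798108 to 2800274, with 0.75 in the combined list, 0.76 in replicate 1 and 0.78 in replicate 2. Next to it lay a cluster at 2795859 to 2797412 (0.28), found in replicate 2 alone (0.41), and a cluster at 2803201 to 2804506 (0.40), found in neither replicate. Just outside Antp, a cluster at 2825490 to 2827727 had 0.75 in the combined list, 0.57 in replicate 1 and 1.00 in replicate 2. The distal end of Antp lies within 1 kb of it in all 3 lists. As background, the distal promoter of Antp, P1, is at that end of the gene.

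Within the 103 kb that the definition assigns to Antp, the combined list had 6 clusters, or 5.83 per 100 kb. The other 247 kb of the interval had 19, or 7.69 per 100 kb. Replicate 1 had 2.91 against 5.26 per 100 kb and replicate 2 had 3.88 against 6.88. On the rest of 3R there were 6.70 per 100 kb in the combined list, 3.76 in replicate 1 and 4.22 in replicate 2. These values lie between those of the 2 parts of the complex. The Antp interval was thus the sparser part in each list, while it held the complex's highest score in each. These few clusters were not tested against each other.

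The region between pb and Dfd had the next strong clusters. It holds zen2, zen, which is a homeobox gene of dorsal patterning, bicoid (bcd), the maternal gene that patterns the anterior of the embryo, and Amalgam (Ama), which encodes a cell adhesion protein. A cluster at 2584267 to 2586584 covers the centromere-distal end of bcd. Its log2 score was 1.67 in the combined list, 1.53 in replicate 1 and 1.84 in replicate 2. It ranked 28, 35 and 22 on 3R in these lists. No cluster lay within 1 kb of an end of zen, zen2 or Ama in any list.

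Further toward Dfd, 2 clusters lay on the long noncoding RNA gene lncRNA:CR42721. The cluster inside it, at 2593144 to 2595275, had 0.65 in the combined list, 0.63 in replicate 1 and 0.73 in replicate 2. The cluster over its distal end, at 2604862 to 2607121, had 1.14, 1.11 and 1.22 in the same order of lists. The microRNA gene mir-993 lies between them and had no cluster within 1 kb of it in any list.

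Dfd, the Hox gene of the maxillary and mandibular segments, had a cluster over its proximal end and none over the rest of the gene. As background, Dfd is transcribed away from the centromere, unlike the other 4 Hox genes, so this is its promoter end. The cluster at 2616393 to 2618521 had a log2 score of 0.50 in the combined list. It had 0.29 in replicate 1, where it was 1509 bp long, and 0.79 in replicate 2, where it was 2235 bp long. That difference of 0.49 between replicates was the widest of all 16 clusters found in both.

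The cluster nearest to Dfd on its other side, at 2631467 to 2633619, had 0.77 in the combined list, 0.60 in replicate 1 and 0.98 in replicate 2. It touches no gene span and lies within 1 kb of lncRNA:CR42651. A weaker cluster at 2635561 to 2637515 (0.30) was found in replicate 2 alone (0.57) and lies within 1 kb of the microRNA gene mir-10. The cluster at 2641157 to 2642589 (0.32) over the distal end of lncRNA:CR42651 was found in neither replicate.

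The longest cluster of the complex lay next to Scr, the Hox gene of the labial and prothoracic segments. It ran from 2643850 to 2649377 and was 5528 bp long in the combined list, 5301 bp in replicate 1 and 5230 bp in replicate 2. Its log2 scores were 1.49, 1.47 and 1.62. It covered the proximal end of Scr and all 6 tRNA and 7SL RNA genes of the interval, namely the lysine tRNA genes tRNA:Lys-TTT-2-1 to tRNA:Lys-TTT-2-4 and the genes 7SLRNA:CR42652 and 7SLRNA:CR32864. RNA polymerase III transcribes both kinds of gene, and 7SL RNA is the RNA of the signal recognition particle. These are gene copies between which short reads may not be placed uniquely, and how such reads were handled is not given in the sources used here.

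Among the longest clusters of the 350 kb intervals of 3R, this one was exceeded in 7 of the 78 others in the combined list, in 2 in replicate 1 and in 3 in replicate 2. All 4 tRNA genes of the complex touched a combined cluster, and they share this single one. On the rest of 3R, 24 of 75 tRNA genes did (32.0%, exact 95% interval 21.7 to 43.8%), against 1799 of 3364 protein-coding genes (53.5%, 51.8 to 55.2%). A longer gene is more readily touched, and gene length was not taken into account. By an end within 1 kb of a combined cluster, the shares there were 46.7% of tRNA genes and 61.3% of protein-coding genes.

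At the other end of Scr the enrichment was weak. A cluster at 2673425 to 2675360 had a log2 score of 0.32 and was found in replicate 2 alone (0.50). It lies inside Scr, within 1 kb of its distal end. The next, at 2679238 to 2681183, had the second lowest combined score of the complex, 0.26, with 0.31 in replicate 1 and 0.34 in replicate 2. The 24.0 kb between the clusters at both ends of Scr, which make up most of the gene and hold 5 noncoding RNA genes, had no combined cluster.

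Between Scr and Antp lies fushi tarazu (ftz), a homeobox gene of the pair-rule class that divides the early embryo into segments. No cluster lay within 1 kb of ftz in any list. The cluster nearest to it on the Antp side, at 2695675 to 2697782, had 0.79 in the combined list, 0.59 in replicate 1 and 1.00 in replicate 2. The cluster at 2718454 to 2720041, over lncRNA:CR45559, had the lowest combined score of the complex (0.25) and was found in replicate 2 alone (0.36).

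At the centromeric side, pb and lab had contrasting patterns. The gene pb, which specifies the mouthparts, had a cluster just inside its proximal end, at 2533571 to 2536481, with 1.49 in the combined list, 1.43 in replicate 1 and 1.59 in replicate 2. A weaker cluster at 2531184 to 2533327 lay immediately outside that end, with 0.74, 0.60 and 0.87. The next combined cluster of pb, at 2563995 to 2565183, had a score of 1.30 but was only 1189 bp long and was found in neither replicate. It was the only one of the 10 highest-scoring clusters of the complex without a counterpart in both replicates. Without it, the stretch that starts inside pb and ends at bcd was bare over 47.9 kb in replicate 1 and 47.8 kb in replicate 2.

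The gene lab, the most centromeric Hox gene, which acts in the head and midgut, had no cluster on its span in any list. Its proximal end lay within 1 kb of the cluster at 2484801 to 2486881, which covers ends of twr and of agt, the gene of a DNA repair alkyltransferase. That cluster had 0.56 in the combined list, 0.46 in replicate 1 and 0.67 in replicate 2. As background, lab is transcribed toward the centromere, so its promoter lies at the other end, which had no cluster within 1 kb. The stretch over lab without a combined cluster was 21.7 kb long. A cluster at 2482720 to 2484478 (0.30), over ends of CG1307 and twr, was found in replicate 2 alone (0.50).

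Between lab and pb lie the cuticle protein genes Edg84A and Ccp84Aa to Ccp84Ag. Of these 8 genes, 2 had an end within 1 kb of a cluster in each list, and they are the outermost, Edg84A and Ccp84Aa. On the rest of 3R, 61.3% of protein-coding genes did in the combined list, 38.0% in replicate 1 and 43.8% in replicate 2. The 8 genes lie close together, so they are not independent, and the difference was not tested. The cluster at 2508608 to 2510646, over an end of Edg84A, had 0.43 in the combined list, 0.40 in replicate 1 and 0.51 in replicate 2. The 6 genes inside the group had none within 1 kb in any list.

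Counting by gene family, all 5 Hox genes had an end within 1 kb of a cluster in each list, and 1 of the 4 other homeobox genes did, bcd. Among all 23 protein-coding genes of the complex, 12 did in the combined list (52.2%, exact 95% interval 30.6 to 73.2%), against 61.3% of protein-coding genes on the rest of 3R. In replicate 1 there were 10 of 23 (43.5%, 23.2 to 65.5%) against 38.0%, and in replicate 2 there were 11 of 23 (47.8%, 26.8 to 69.4%) against 43.8%. The complex was thus below the rest of the arm in the combined list and above it in both replicate lists. Of the 25 combined clusters, 12 covered an end of some gene (48.0%, 27.8 to 68.7%), against 62.0% of clusters on the rest of 3R. All these intervals contain the value for the rest of the arm. A further 9 clusters touched a gene span without reaching an end, and 4 touched no gene span.

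The ends near clusters were not always promoter ends. By the directions of transcription given above as background, the promoter end was covered by a cluster in all 3 lists for Dfd. For Antp the end with its distal promoter, P1, lay within 1 kb of a cluster in all 3 lists. Promoters inside a gene span were not examined. For Scr the promoter end lay within 1 kb of a cluster in the combined list and in replicate 2. For lab and pb it had none within 1 kb in any list, and the cluster near each gene stood at its 3′ side.

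The replicates marked the same places in the complex to a large extent. All 16 clusters of replicate 1 overlapped one of replicate 2 (exact 95% interval 79.4 to 100%), against 84.0% on the rest of 3R. In the other direction 16 of 21 did (76.2%, 52.8 to 91.8%), against 74.7%. Of the combined clusters, 16 of 25 were found in both replicates (64.0%, 42.5 to 82.0%), against 46.6% on the rest of 3R. Another 5 were found in replicate 2 alone, 0 in replicate 1 alone, and 4 in neither (16.0%, 4.54 to 36.1%), against 30.8% in neither on the rest of 3R. These intervals contain the values for the rest of the arm.

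Shared clusters were also placed alike. Over the 16 pairs the midpoints differed by a median of 19.8 bp and at most 200.5 bp, against a median of 55.5 bp over 852 pairs on the rest of 3R. Across these 16 clusters, which are not independent replicates, the log2 scores had a Spearman's rho of 0.824 and a Pearson's r of 0.946, against 0.840 and 0.922 on the rest of 3R. Replicate 2 had the higher log2 score in 15 of 16 pairs, with a mean difference of 0.21 ± 0.17 (SD over the 16 pairs). On the rest of 3R it did in 73.1% of pairs, with a mean difference of 0.10 ± 0.16. The exception in the complex was the strongest cluster inside Antp, where the score of replicate 2 was 0.16 lower. Any scaling between the replicate lists is unknown.

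**Figure D3:**
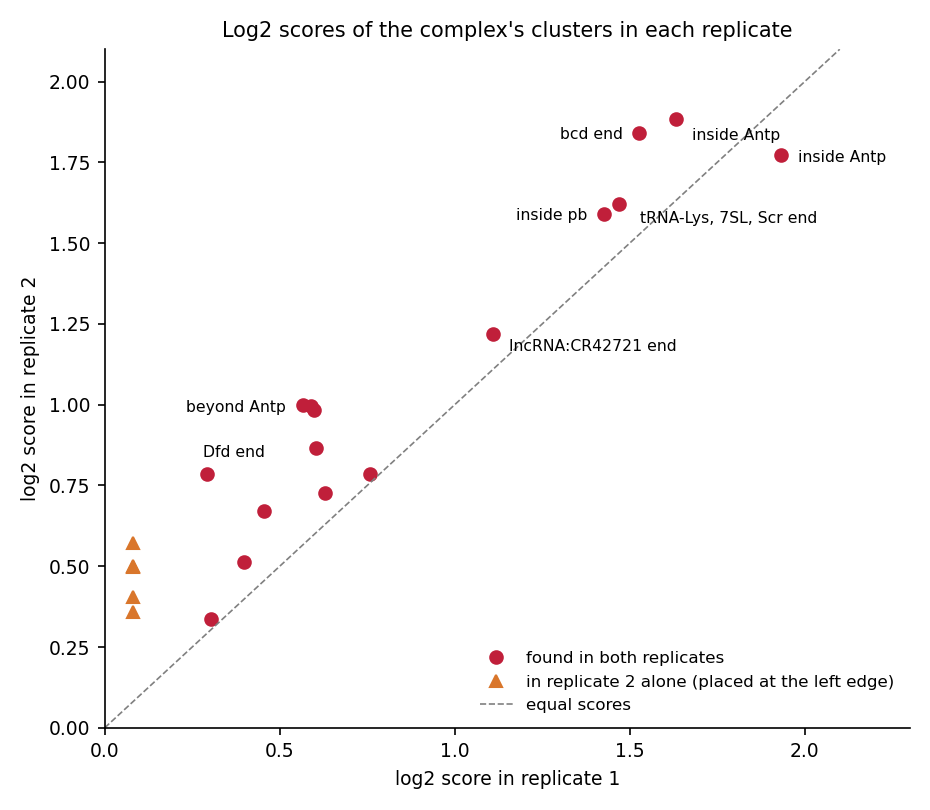
Log2 score in replicate 2 (vertical axis) against log2 score in replicate 1 (horizontal axis) for the 16 clusters of the complex found in both, with the 5 found in replicate 2 alone at the left edge. In 15 of the 16 the point lies above the dashed line of equal scores; the Dfd end is the farthest from it.

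Clusters that lacked a counterpart were weak or short. The 5 found in replicate 2 alone had combined log2 scores of 0.25 to 0.32 and lengths of 1554 to 1955 bp. The 4 found in neither had lengths of 1141 to 1433 bp and, apart from the cluster in pb with 1.30, scores of 0.31 to 0.40. No replicate cluster on 3R was shorter than 1301 bp, while combined clusters there went down to 1001 bp. Of these 4 clusters, those of 1141 and 1189 bp were shorter than any replicate cluster on the arm. The 16 found in both had scores of 0.26 to 1.85, with a median of 0.76, and lengths of 1946 to 5528 bp.

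Set against the 78 other intervals of 3R, the complex held an ordinary number of clusters in the combined list. Its place by number depended on the list and was higher in replicate 2. Its 25 combined clusters compare with a median of 23 and a range of 13 to 37, and 21 intervals held more. In replicate 1 its 16 compare with a median of 13, and 19 held more. In replicate 2 its 21 compare with a median of 14.5, and 6 held more. The longest bare stretch of the complex, 43.9 kb, is shorter than the median of 59.9 kb.

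By number, the complex had more clusters of high score than most intervals, while by share its place depended on the list. In the combined list 7 of 25 clusters had a log2 score of at least 1 (28.0%, exact 95% interval 12.1 to 49.4%), against 9.65% of the clusters on the rest of 3R. A median of 2 clusters per interval did so among the others, and 1 interval had more than 7. In replicate 1 there were 6 of 16 (37.5%, 15.2 to 64.6%) against 14.9%, and 1 interval had more. In replicate 2 there were 6 of 21 (28.6%, 11.3 to 52.2%) against 19.1%, and 4 intervals had more. By the share of clusters with such a score, in place of their number, 3 intervals exceeded the complex in the combined list, 7 in replicate 1 and 19 in replicate 2. The exact interval of replicate 2 contains the value for the rest of the arm, and that of the other lists lies just above theirs. One of the 7 combined clusters is the short cluster in pb found in neither replicate. The difference was not tested.

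Median log2 scores ranked less evenly across the lists. The median of 0.65 in the combined list was exceeded by 1 of 78 intervals, whose range was 0.33 to 0.65. In replicate 1 the median of 0.62 was exceeded by 28 intervals, and in replicate 2 that of 0.79 by 6. The rank thus depends on which list is used.

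The complex is poor in protein-coding genes and has many clusters per such gene. It held 23 such genes, against a median of 42 over the other intervals, and 73 intervals held more. There were 1.09 combined clusters per protein-coding gene, against a median of 0.561 and a range of 0.254 to 1.20. In replicate 1 the ratio was 0.696 against a median of 0.314, and in replicate 2 it was 0.913 against 0.360. In these lists 1, 1 and 0 of the 78 intervals had a higher ratio. A low gene count raises this ratio by construction, and other gene-poor intervals also had high values. The intervals with fewer such genes than the complex held 14 to 21 of them. Their ratios were 0.714 to 1.20 in the combined list, 0.353 to 0.850 in replicate 1 and 0.524 to 0.900 in replicate 2. The number of genes in an interval was not separated from their length.

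**Figure D4:**
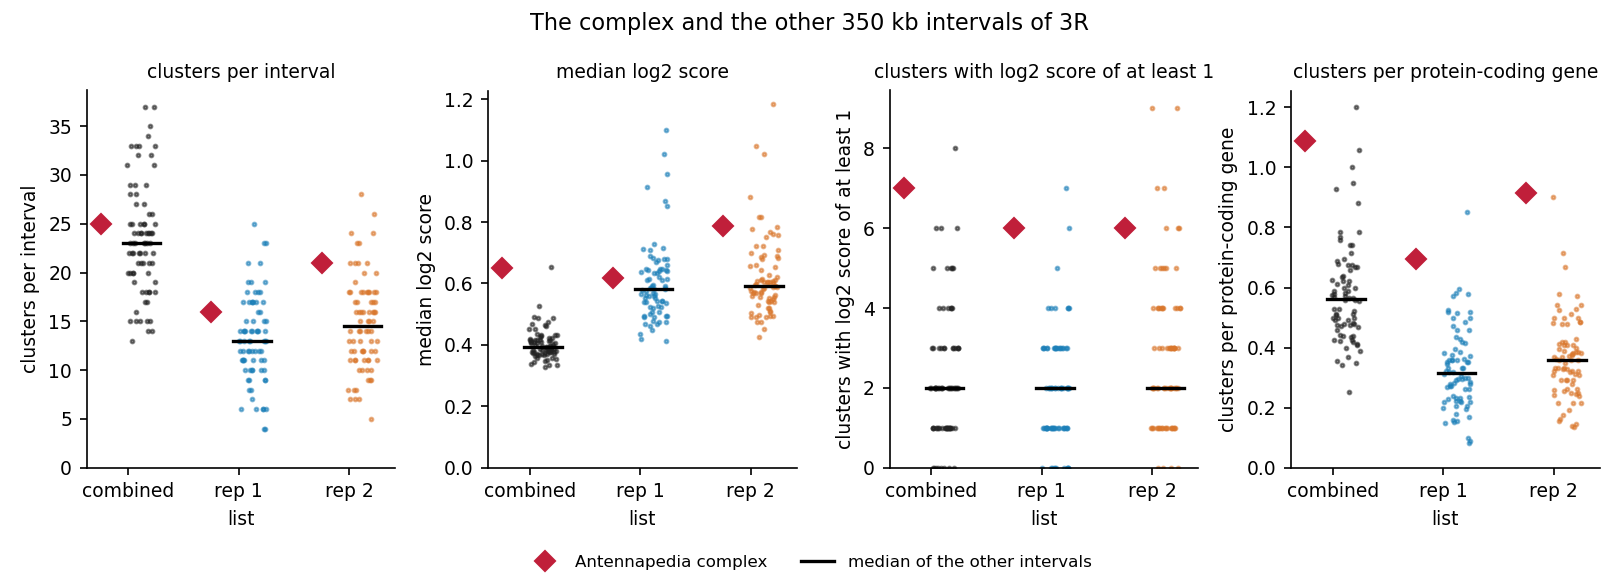
Value of the complex (red diamonds) and of each of 78 other 350 kb intervals of 3R (dots, with their median as a black line), by list on the horizontal axes, for 4 measures on the vertical axes: clusters per interval, median log2 score, clusters with a log2 score of at least 1, and clusters per protein-coding gene. The complex lies near the middle by clusters in the combined list (25 against a median of 23) and near the top by clusters per protein-coding gene (1.09 against 0.561).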

How the data were processed

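The series holds 2 CP190 ChIP samples and 2 inputs of Oregon-R embryos. Bowtie 0.12.7 aligned the reads, according to the submitters' processing notes. As processed files the authors deposited 1 list of enriched regions per ChIP replicate and 1 combined list, on FlyBase release 5 per the file headers. Not given in the sources used here are the caller, its thresholds and the way replicates were combined. The deposited values are treated as log2 values. When 2 was raised to them and divided by 1 constant per list, 7953 of 7960, 4460 of 4461 and 4900 of 4900 gave ratios of whole numbers with denominators up to 2000 (combined, replicate 1, replicate 2; relative tolerance 1e-12), and with base e or 10 at most 0.531% did. No read counts were used, so depth is unknown.

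Computation used Python 3.11.15, pandas 2.3.3, NumPy 2.4.6 and SciPy 1.17.1, with figures from matplotlib 3.10.9. Membership went by midpoint, and sharing needed at least 1 bp of overlap. Overlap, cover, gap and interval counts were tested on simulated lists with known answers. Gene spans came from RefSeq (assembly Release 6 plus ISO1 MT), shifted by 1 constant on 3R; gene starts were planned, but the table has no strand, so gene ends were used. No promoter sequence was used. The clusters named were the 10 with the highest score, the 5 longest, those at homeobox genes and the strongest without a counterpart; the others are given for completeness. The score threshold of 1 was chosen after the values were seen. The members, lists and measures were chosen with earlier results of these data known. Alternatives varied the list, the overlap rule, merging, the intervals and the distance to genes. In addition, 1 kept only clusters above the median score and 1 only clusters of at least 1301 bp. The threshold of 1 itself was not varied.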

Additional observations from a re-analysis of the deposited data

How the results depend on the processing

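There were 11 results and 64 alternative values. Of these values, 37 stayed within a fixed fold margin, the interval or the SD between the replicate lists, and 27 moved further. Changes of direction were not scored. With either replicate left out, which means using the other's list, the complex had 16 to 21 clusters covering 10.6 to 13.5%, a median log2 score of 0.62 to 0.79, a shared part of 76.2 to 100%, a median neighbour distance of 13.3 to 16.3 kb against 12.2 kb, a longest bare stretch of 56.2 to 58.5 kb, 2.91 to 3.88 clusters per 100 kb in the Antp interval and 5.26 to 6.88 outside it. Of 79 intervals it then ranked 7 to 20 by clusters and 7 to 29 by median score, against 22 and 2. Above the median score of the whole list, 16 clusters covered 11.0%, 93.8% were shared, neighbours lay 20.8 kb apart, the bare stretch was 58.4 kb, densities were 2.91 and 5.26 per 100 kb, and the rank by clusters was 7. With clusters found in both replicates alone, the values were 16 clusters, 11.2%, 16.5 kb, 58.4 kb, 2.91 and 5.26. Fewer clusters give longer bare stretches and lower densities by construction; the cause of the changed ranks was not tested. Among the 21 intervals with at most 35 protein-coding genes, chosen after seeing the data, the complex ranked 1 by clusters in the combined list. An interval with 36 such genes, just past the limit, tied with it at 25 clusters. In replicate 1, intervals with 20 and 33 such genes held 17 clusters each, against 16 in the complex. In replicate 2 its 21 clusters were the most in this group. With combined clusters of at least 1301 bp alone, also chosen after seeing the data, the complex had 23 clusters, and 69.6% were shared. It then ranked 14 by clusters and 5 by median score. Merging, the 50% overlap rule, membership by overlap and shifted intervals moved nothing beyond these margins. No paired analysis was possible because each ChIP replicate is 1 list and the inputs have no list of their own. With no read depth given, its limit on weak clusters was not measured.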

Other observations

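Of the 18 long noncoding RNA genes of the complex, 9 had an end within 1 kb of a combined cluster (50.0%, exact 95% interval 26.0 to 74.0%), against 142 of 406 on the rest of 3R (exact interval 30.3 to 39.8%). Replicate 1 gave 6 of 18 (33.3%, 13.3 to 59.0%) against 87 of 406 (21.4%), and replicate 2 gave 9 of 18 (50.0%, 26.0 to 74.0%) against 99 of 406 (24.4%). The value for the rest of 3R lies inside the interval of the complex in the combined list and replicate 1, and just below it in replicate 2. These differences were not tested. Neighbouring genes can share a cluster, as lncRNA:CR45559 and lncRNA:CR44932 do, so the genes are not independent. The exact intervals do not allow for this. The 5 noncoding RNA genes inside Scr, lncRNA:CR45901 to lncRNA:CR45905, had no cluster within 5 kb in any list. Among the 16 clusters found in both replicates, the combined log2 score lay between the replicate scores in 14.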
